A study of Mus musculus with 294 samples.

Results

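The cells described here are contractile-gene cells of the neural crest lineage in the embryonic mouse heart that lack the smooth muscle myosin Myh11. They were chosen by 4 genes: Acta2, Tagln and Myl9 each at 100 CPM or more, and Myh11 below 10 CPM. CPM (counts per 1000000) scales the reads of each gene to a cell total of 1000000. The rule took 92 of 294 cells, 31.3% (exact Clopper-Pearson 95% interval 26.03 to 36.9). These 92 cells are called contractile cells in the text and members in the plots. A gene was counted as detected in a cell at 10 CPM or more.

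All 294 cells carried the genotype Wnt1-Cre; R26-EYFP, in which the Wnt1 driver switches on a yellow fluorescent reporter in neural crest cells and their descendants. EYFP-positive cells from around the aorticopulmonary septum of the outflow tract were sorted and captured singly with the Fluidigm C1 system, on its medium cell-size chip. The ages were E11.5 and E12.5, early in outflow septation, and E14.5 and E17.5, after it. The labels gave no treatment and no control genotype, and no stage, animal or chip for a single cell, so all cells formed 1 sample and the values below carry no p-value and no standard error. Cells were compared within 7 name series, formed by the leading digit of each cell name. What that digit stands for is not stated in the labels. The contractile cells were set beside 112 cells with Acta2 below 10 CPM (Acta2-low cells) and beside 17 cells with Acta2, Tagln, Myl9 and Myh11 each at 100 CPM or more (Myh11 cells). Of the remaining cells, 15 had the 3 contractile genes at 100 CPM or more with Myh11 between 10 and 100 CPM, and 58 fell in none of these sets.

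Smooth muscle cells of the great arteries next to the heart arise from the cardiac neural crest, which also fills the outflow cushions with mesenchyme. Contractile genes are known to be switched on in steps. Acta2 (smooth muscle alpha-actin), Tagln (SM22alpha, an actin-binding protein) and Myl9 (the regulatory myosin light chain) come on early and are shared with activated mesenchyme. Cnn1 (calponin, which binds actin and restrains the myosin motor) follows, and Myh11 (the smooth muscle myosin heavy chain) marks the mature cell. Serum response factor drives many of these genes through a DNA element called the CArG box, together with myocardin or the myocardin-related factors that respond to actin assembly.

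The promoters below are those of 3 genes of actin regulation outside the rule (Cnn1, Cnn2 and Vcl) and 2 of the rule itself (Acta2 and Myl9). They include every gene called higher below whose window held a full CArG box, so they do not stand for actin genes at large. Tpm1, Tpm2, Pls3 and Cdc42ep3, also called higher, had an entry without a full box and are not shown. Each promoter shown is the 250 bases before the transcription start in RefSeq on GRCm38.p6, read in the gene's direction. CArG boxes are in capitals, allowing 1 mismatch to the consensus. Acta2 (chr19:34255374-34255623, minus strand) held 2 boxes with 1 mismatch each, which begin 84 and 34 bases before the start. Myl9 (chr2:156775214-156775463, plus strand) held a full box at 161 bases and 1 with a mismatch at 99 bases. Cnn2 (chr10:79988350-79988599, plus strand) held a full box at 56 bases, and Vcl (chr14:20929148-20929397, plus strand) a full box at 227 bases. No match was found in this window of Cnn1 (chr9:22099003-22099252, plus strand).
Acta2: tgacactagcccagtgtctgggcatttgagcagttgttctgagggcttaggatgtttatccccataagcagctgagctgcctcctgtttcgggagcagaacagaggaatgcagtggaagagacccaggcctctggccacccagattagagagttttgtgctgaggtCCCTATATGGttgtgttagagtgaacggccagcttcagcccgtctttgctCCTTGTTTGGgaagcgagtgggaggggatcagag
Myl9: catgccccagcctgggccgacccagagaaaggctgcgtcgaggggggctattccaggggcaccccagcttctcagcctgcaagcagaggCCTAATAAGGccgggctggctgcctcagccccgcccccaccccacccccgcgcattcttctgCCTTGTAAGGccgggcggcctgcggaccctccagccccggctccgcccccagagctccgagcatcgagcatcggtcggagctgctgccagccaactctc
Cnn1: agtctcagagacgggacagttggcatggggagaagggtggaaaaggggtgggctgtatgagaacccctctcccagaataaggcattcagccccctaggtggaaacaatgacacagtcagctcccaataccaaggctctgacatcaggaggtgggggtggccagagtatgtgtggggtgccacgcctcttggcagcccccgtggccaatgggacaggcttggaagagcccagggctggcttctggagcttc
Cnn2: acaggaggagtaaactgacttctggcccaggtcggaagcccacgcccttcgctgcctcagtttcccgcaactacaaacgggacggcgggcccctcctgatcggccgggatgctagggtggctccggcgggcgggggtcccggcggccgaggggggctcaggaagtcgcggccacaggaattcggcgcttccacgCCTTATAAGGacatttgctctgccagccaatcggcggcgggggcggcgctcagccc
Vcl: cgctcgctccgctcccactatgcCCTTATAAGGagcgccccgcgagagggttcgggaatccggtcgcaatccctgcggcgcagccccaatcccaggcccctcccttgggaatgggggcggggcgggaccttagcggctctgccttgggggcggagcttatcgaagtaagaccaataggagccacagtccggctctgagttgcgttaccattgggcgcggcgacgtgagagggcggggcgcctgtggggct

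A full CArG box was present in 1.47% of all 32851 RefSeq promoter windows of this length, and a box with at most 1 mismatch in 18.6%. The consensus reads the same on both strands, so 1 scan covers both. Among the 37 genes higher in contractile cells (below), 28 had an entry, in 39 windows. A full box lay in 3 of these windows (7.69%), those of Cnn2, Myl9 and Vcl, and a box with at most 1 mismatch in 7 (17.9%). Acta2 and Myl9 are among these genes through the rule. The share of 7.69% is thus drawn in part from genes that chose the cells. The letters GGAATG or their complement, the core bound by TEAD factors, lay in 11 of the 39 windows (28.2%) and in 12.6% of all windows. A match is a description of letters and not a measured binding site. Tagln, Actg2 and Ctgf had no entry.

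The contractile cells were spread over all 7 name series. They numbered 23 of 58 cells in series 1, 9 of 48 in series 2, 6 of 38 in series 3, 15 of 38 in series 4, 15 of 34 in series 5, 6 of 34 in series 6 and 18 of 44 in series 7. These shares ran from 15.8% (6.02 to 31.3) in series 3 to 44.1% (27.2 to 62.1) in series 5. The Myh11 cells were unevenly placed beside them, with 9 in series 1, 7 in series 2, 1 in series 3 and none in series 4 to 7. Contractile cells thus occurred both in series with Myh11 cells and in series without them.

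Contractile cells had 34046 to 2946311 reads, with a median of 1369953.5, against 34046 to 3033857 over all cells. Series 1 stood apart: 2051 genes had a read in each of its 58 cells, against at most 274 genes in any other series, and its lowest Acta2 level was 40.2 CPM. Series 1 therefore held no Acta2-low cell, and the comparison with Acta2-low cells rests on the 69 contractile cells of series 2 to 7. Within those 6 series, contractile cells had more genes with a read per cell than Acta2-low cells, with series medians of 3657 to 5675 against 2881 to 4208. With every cell thinned to 200000 reads the medians were 3265 to 5104 against 2549 to 3751.5, and again higher in contractile cells in 6 of 6 series. The thinning left out 1 contractile and 5 Acta2-low cells of lower depth.

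**Figure D1:**
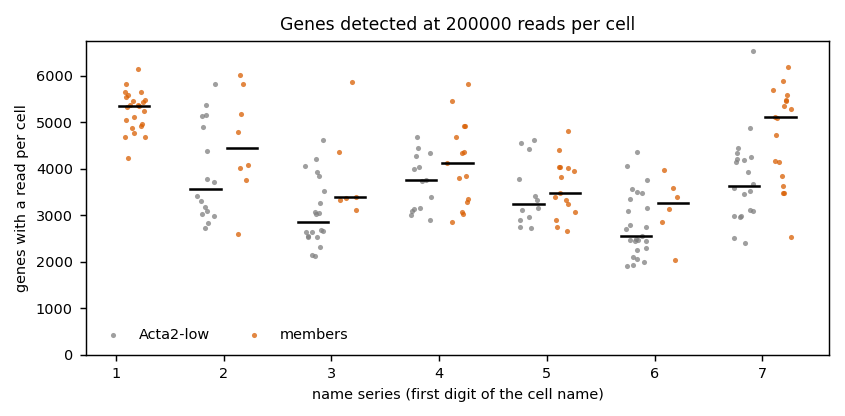
Genes with at least 1 read per cell after thinning to 200000 reads (vertical axis), by name series (horizontal axis). Points are cells, orange for the contractile cells (members) and grey for the Acta2-low cells, and bars are medians. The orange median lies above the grey one in series 2 to 7, and series 1 has no grey cell.

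Acta2, Tagln and Myl9 chose the cells, so their levels are a description. Acta2 ran from 106.7 CPM over a median of 924.7 to 9244 CPM in the 92 cells. Tagln ran from 125.2 over 1079.6 to 9540 CPM, and Myl9 from 112.1 over 849.9 to 6114 CPM. The levels of all 3 genes thus differed widely among cells taken by the same rule. Across series the median Acta2 level lay between 439 CPM in series 5 and 2657 CPM in series 2, with overlapping ranges. At the edges, the nearest cells left out had 84.0 CPM of Acta2, 69.8 of Tagln, 89.2 of Myl9 or 10.4 of Myh11, and the nearest ones taken had 106.7, 125.2, 112.1 and 8.65 CPM. Acta2 alone kept out 32 cells, Tagln alone 8, Myl9 alone 11 and Myh11 alone 32.

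Myh11 had no read in 68 of the 92 cells. The other 24 cells were at or below 8.65 CPM, and 17 of them came from series 1, where reads of many genes were present in every cell. Over series 2 to 7, the summed Myh11 level was 0.265 CPM (Poisson 95% interval 0.170 to 0.394) in contractile cells and 0.279 (0.194 to 0.387) in Acta2-low cells. These intervals count pooled reads and do not cover the spread over cells. No Myh11 read was present in 62 of the 69 contractile and 107 of the 112 Acta2-low cells. The highest Acta2-low cell, in series 2, had 15.1 CPM. The Myh11 threshold chose the contractile cells, so these levels are a description too.

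**Figure D2:**
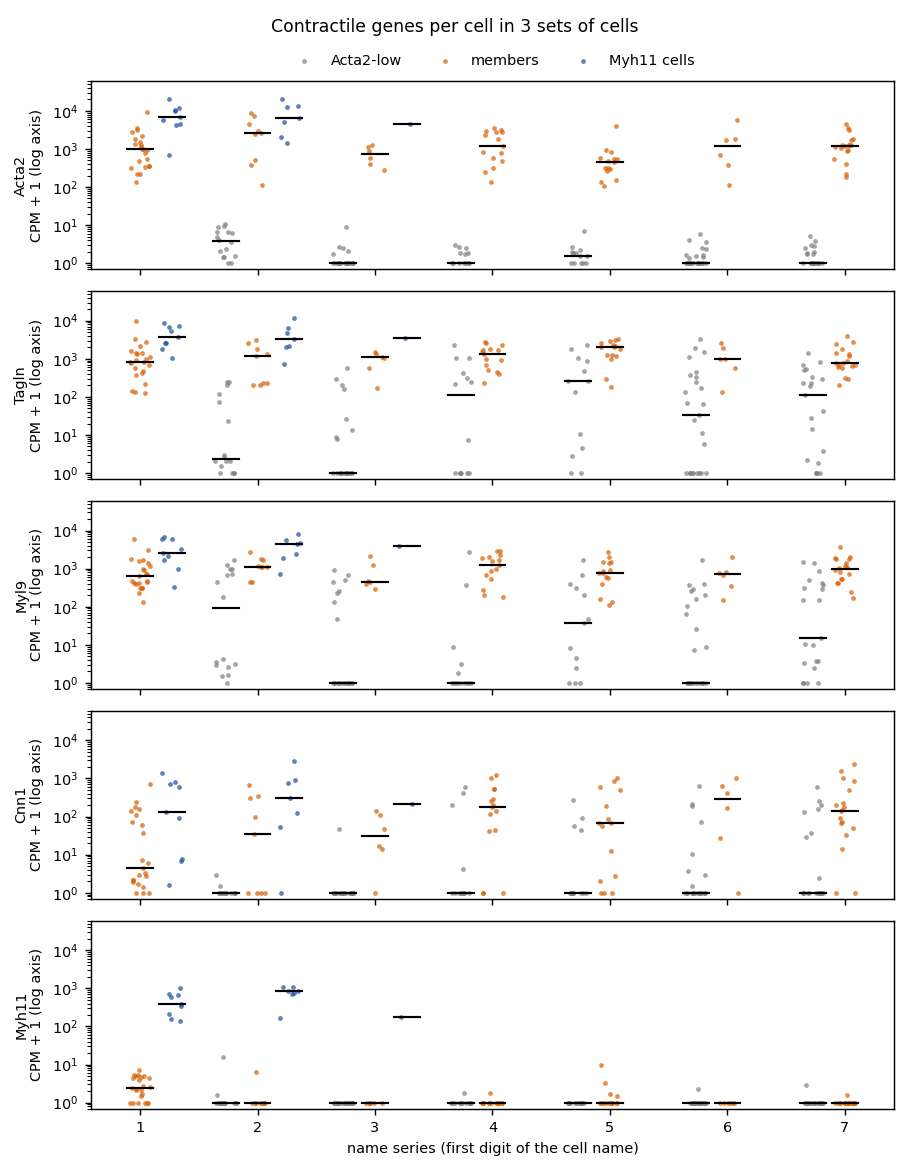
Levels of Acta2, Tagln, Myl9, Cnn1 and Myh11 per cell (CPM + 1, log axis) by name series. Points are single cells, grey for Acta2-low cells, orange for the contractile cells (members) and blue for Myh11 cells, with bars at the medians. Acta2, Tagln, Myl9 and Myh11 were used to form the sets, and Cnn1 was not: its orange points reach from 0 to 2466 CPM.

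Tagln and Myl9 were also present without Acta2. Tagln was detected in 50.0% of the 112 Acta2-low cells (median 9.95 CPM, highest 3398) and Myl9 in 41.1%. In those cells the ranges of Tagln reached into the range of the contractile cells, while Acta2 was below 10 CPM by choice.

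Cnn1, which the rule did not use, was present in most contractile cells and in few Acta2-low cells. It was detected in 62 of 92 contractile cells (67.4%, 56.8 to 76.8), with 0 CPM in 17 cells, a median of 67.3 and a highest value of 2466 CPM. In series 2 to 7 it was detected in 53 of 69 contractile cells (76.8%, 65.1 to 86.1) and in 19 of 112 Acta2-low cells (17.0%, 10.5 to 25.2). By series from 2 to 7, the contractile cells with Cnn1 were 5 of 9, 5 of 6, 12 of 15, 10 of 15, 5 of 6 and 16 of 18, and the Acta2-low cells 0 of 16, 1 of 23, 3 of 14, 4 of 13, 4 of 25 and 7 of 21. A count of 0 allows 3 cells, which is a share of up to 18.8% of 16 cells, and of 2.68% of 112, 20% of 15, 33.3% of 9 or 42.9% of 7 cells where 0 is printed for other genes below. The share with Cnn1 was higher in contractile cells in 6 of 6 series, by 58.6 percentage points as the mean over series. In cells thinned to 200000 reads the difference was 55.5 points, and at 100 CPM instead of 10 it was 37.3 points. These intervals account for the counting of cells alone. Without molecular identifiers, several reads can come from 1 molecule.

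Cnn1 also varied among the contractile cells. In series 1 it reached 10 CPM in 9 of 23 cells (39.1%, 19.7 to 61.5), with a median of 3.36 CPM, although that series had the most genes per cell. In series 7 it did so in 16 of 18 cells (88.9%, 65.3 to 98.6), with a median of 143 CPM. Smtn (smoothelin, a filament-associated protein of contractile smooth muscle) had another placing, in 15 of 23 cells of series 1 and in 20 of 69 cells of series 2 to 7.

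Genes were compared by the log2 ratio of mean CPM (contractile over Acta2-low cells, 10 CPM added to both means), taken within each of the 6 series. A gene's value is the median over series, and it was called when that median was 2-fold or more and all 6 series had the same sign. Of 6860 genes detected in at least 20% of the cells on either side, 37 (0.539%) were called higher and 42 (0.612%) lower, and the median of all genes was -0.07. A gene detected mainly on 1 side passes this filter through the side where it is high. Of the 5284 genes detected in at least 20% of the cells on both sides, 19 (0.36%) were called higher and 24 (0.454%) lower. Acta2 at 7.18, Myl9 at 2.19 and Tagln at 1.94 are among the 37 and were fixed by the rule. The split of calls depends on the scale: with the difference of mean log2(CPM + 1), 251 genes were higher and 5 lower. Contractile cells had more genes with a read per cell, as given above, and the part of this in the split was not tested. Asking for agreement in 5 series instead of 6, by leaving out series 2, 3, 4, 5, 6 or 7 in turn, gave 81, 61, 50, 68, 73 and 58 genes higher and 77, 78, 110, 105, 72 and 83 lower.

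After Acta2, the highest values were those of Tm4sf1 (a membrane protein of the tetraspanin-related family, 3.72), Anxa1 (annexin A1, 2.53), Cnn1 (2.45) and Bdnf (a neurotrophin, 2.33). They were followed by Zfp433 (2.26), 1810055G02Rik (2.19), Actg2 (smooth muscle gamma-actin, 2.01), Maml2 (a coactivator of Notch signalling, 2.01), Fam129b (1.81), Ankrd1 (1.72) and Ccdc84 (1.65). Bmp4, a secreted bone morphogenetic protein, stood at 1.57. Of the 37 genes, 7 were called higher under each of 15 alternatives to the cells, scale or series used (Acta2, Cnn1, Cnn2, Myl9, Tagln, Tm4sf1 and Tpm1), and the other 30 lost the call under at least 1. The filter on both sides was not among the 15. It leaves out Acta2, Cnn1 and Tm4sf1, which were detected in too few Acta2-low cells. Of the 7 genes, only Cnn2 and Tpm1 were both outside the rule and called higher with that filter. With 1 series left out in turn, Bdnf ran from 1.70 (without series 4, 6 or 7) to 2.96 (without 2, 3 or 5).

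Tm4sf1 was detected in 22 of 69 contractile cells (31.9%, 21.2 to 44.2) and 14 of 112 Acta2-low cells (12.5%, 7.005 to 20.1), up to 4931 and 1185 CPM. Its placing was uneven: 22 of 23 contractile cells of series 1 and 9 of 9 of series 2 had it, against 1 of 15 in series 5 and 2 of 18 in series 7. In series 4, 5 and 7 the ratio thus rested on few cells. Anxa1 and Bdnf were likewise minority genes, detected in 33.3% and 26.1% of contractile cells and in 10.7% and 6.25% of Acta2-low cells.

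**Figure D3:**
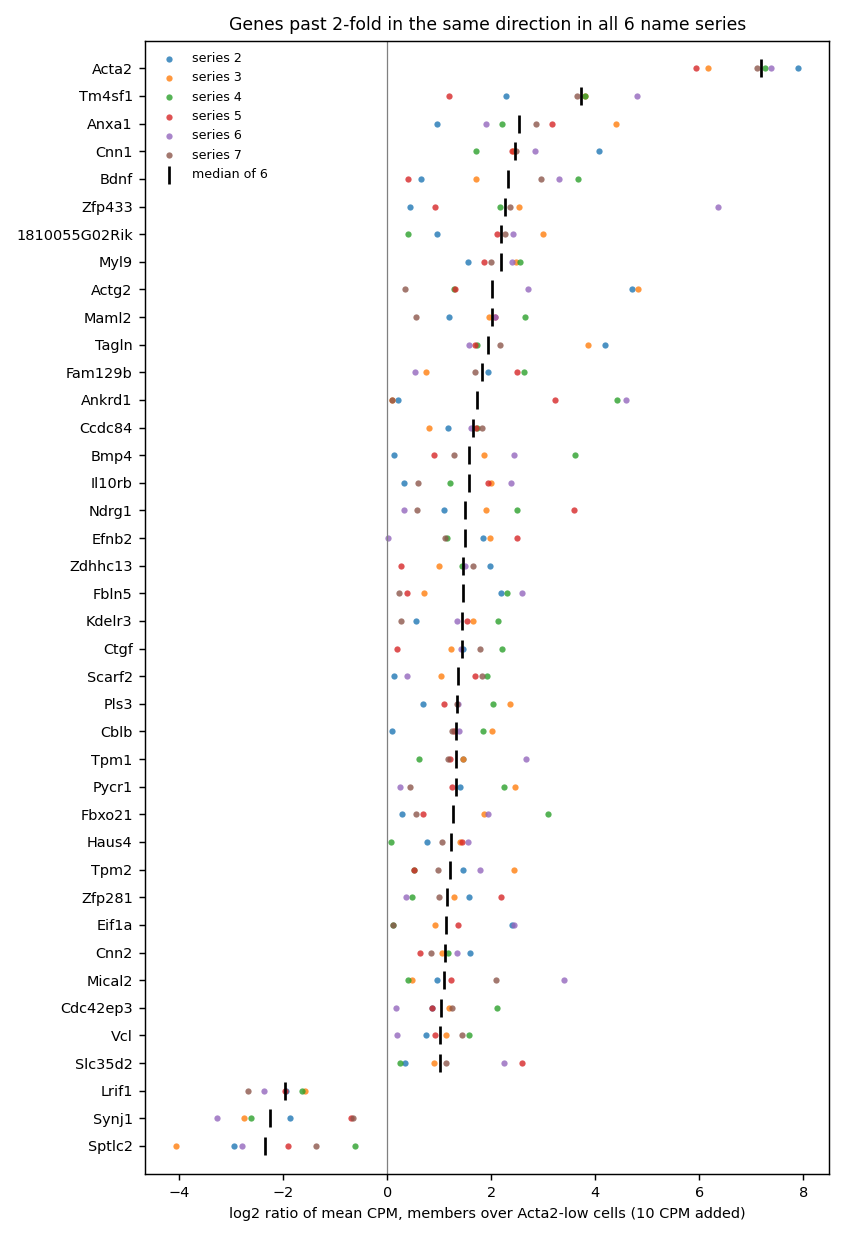
Log2 ratio of mean CPM, contractile cells (members) over Acta2-low cells, with 10 CPM added, for the 37 genes called higher and the 3 lowest of the 42 called lower. Coloured points are name series 2 to 7 and black bars their medians. Cnn1 lies between 1.71 and 4.07 in the 6 series, while Ankrd1 lies between 0.08 and 4.59.

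The lower genes were mostly sparse. Of the 10 lowest, 8 are given here: Sptlc2 (-2.35), Synj1 (-2.25), Lrif1 (-1.96), Poglut1 (-1.88), Zfp397 (-1.82), Elp6 (-1.81), Ppip5k2 (-1.68) and Ep400 (-1.61). Sptlc2, the catalytic subunit of the first step of sphingolipid synthesis, was detected in 15.9% of contractile and 22.3% of Acta2-low cells, so its difference lay in the level of few cells. Poglut1 was at -0.58 without series 2, 5 or 6 and at -3.18 without series 3, 4 or 7. Ythdf2, a reader of methylated adenosine in RNA, was the 1 gene called lower under each alternative. It stood at -1.52 and was detected in 36.2% and 48.2% of the cells.

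Genes that build and bind the actin filament lay mostly above 0. Of 29 listed genes of the thin filament and its myosin, 28 were compared, 6 were called higher (Cnn1, Cnn2, Tpm1, Tpm2, Actg2 and Pls3) and none lower. That is 6 of 28 beside 0.539% of all genes, and the list's median was 0.56, against -0.07 for all genes. Cnn1 and Actg2 passed the filter only through the contractile cells. Of the 26 genes detected on both sides, 4 were called higher, with a median of 0.53, beside 0.36% and -0.11 for all genes so detected. In 15 of the 28 the ratio was above 0 in each of the 6 series, which held for 1.69% of all genes compared. Beyond the 6 called, these were Tpm4, Actg1, Actb, Myl6, Myl12a, Myh9, Actn1, Csrp1 and Pdlim7.

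Tpm1, a tropomyosin that lies along the filament, was detected in 69 of 69 contractile cells, from 12.01 over a median of 697 to 3474 CPM. The Acta2-low cells ran from 0 over 187 to 3063 CPM. The ranges overlapped, and the log2 ratio was 1.33, between 0.61 and 2.66 over the series. Tpm2, a second tropomyosin, was detected in 95.7% of contractile and 58.0% of Acta2-low cells, with medians of 324 and 45.03 CPM and a log2 ratio of 1.21, which was 0.97 without series 2, 3 or 6. Cnn2, a calponin of non-muscle cells as well, had medians of 623 and 147 CPM and a log2 ratio of 1.10. Pls3, an actin-bundling plastin, was detected in 69.6% and 34.8% of the cells and had a log2 ratio of 1.35. Non-muscle filament genes shared the direction with smaller values: Tpm4 stood at 0.96, Myl6 at 0.99, Myh9 (the heavy chain of non-muscle myosin) at 0.80 and Actn1 at 0.66.

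Actg2 needs care, because the muscle actin genes are near-identical and reads can be split between them. It was detected in 21 of 69 contractile cells and in 9 of 112 Acta2-low cells. Its ratio was 1.31 without series 2, 3 or 6 and 2.71 without series 4, 5 or 7. Over all 92 cells, 43 had no Actg2 read, including a cell with 4642 CPM of Acta2. In the other 49 the Actg2 reads per 100 Acta2 reads ran from 0.0233 over a median of 6.76 to 440.8. How the deposited counts treated shared reads is not given in the sources used here, and their part in the Actg2 values was not tested.

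The list of the more mature smooth muscle programme shares Cnn1 and Actg2 with the thin filament list. Of its 20 genes, 9 passed the detection filter, 6 of them (Smtn, Actg2, Synpo2, Itga8, Cnn1 and Gucy1a3) only through the contractile cells. Cnn1 and Actg2 were the 2 genes called, so these calls say nothing about the list. None of the 3 genes detected on both sides was called. Lmod1 (leiomodin, a filament nucleator of smooth muscle) was detected in 11 of 69 contractile and 5 of 112 Acta2-low cells. Mylk (the myosin light chain kinase) was detected in 7 of 69 and 3 of 112 cells, and Kcnmb1 (a potassium channel subunit) in 6 of 69 and 0 of 112. For Kcnmb1 the highest Acta2-low cell had 1.14 CPM and the highest contractile cell 956 CPM. Synpo2, an actin-binding protein of the Z-line and dense body, had a median ratio of 1.64 but was below 0 in 1 series and was not called. Des (desmin) was detected in 9 of 69 and 12 of 112 cells.

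Of 25 genes of focal adhesions and rho signalling, all compared, 2 were called higher (Vcl and Cdc42ep3) and none lower, beside 0.539% and 0.612% of all genes, with a list median of 0.29. Both calls are near the threshold, and without series 3, 4 or 7 the ratios were 0.91 for Vcl and 0.87 for Cdc42ep3. Vcl (vinculin, which ties actin to adhesions) was detected in 63 of 69 contractile cells (91.3%) and 63 of 112 Acta2-low cells (56.2%). Its medians were 292 and 22.3 CPM and its log2 ratio 1.02. Ilk (integrin-linked kinase, 0.64), its partner Parva (0.56), Rhoc (0.23) and Cfl1 (cofilin, 0.29) were above 0 in each of the 6 series without reaching 2-fold. Itgav, an integrin alpha chain, was below 0 in each series, at -0.93.

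Of 29 listed regulators of the smooth muscle programme, 18 were compared and none was called higher or lower, with a median of -0.27. With 0.539% of all genes called higher and 0.612% lower, 0 of 18 is near the background. Myocd (myocardin) was detected in 11 of 69 contractile and 7 of 112 Acta2-low cells, with 54 and 104 cells at 0 reads. Foxc1, a forkhead factor of neural crest mesenchyme, was the 1 regulator above 0 in each series, at 0.47, and was detected in 60.9% against 38.4% of the cells. Tbx20 and Gata6, factors of the outflow tract, were detected in 88.4% and 92.8% of contractile cells and had ratios of 0.12 and -0.50.

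A list of targets of YAP or of serum response factor gave 2 calls among 15 genes compared (Ctgf and Ankrd1, none lower, median 0.43), beside 0.539% of all genes. Of the 12 genes detected on both sides, Ctgf was the 1 called, beside 0.36% of all genes so detected, with a median of 0.25. Ctgf, a secreted matricellular protein, was detected in 52 of 69 contractile cells (75.4%) and 51 of 112 Acta2-low cells (45.5%), with medians of 172 and 0.63 CPM and a log2 ratio of 1.43. Ankrd1, an ankyrin-repeat cofactor, was detected in 20 of 69 and 8 of 112 cells and passed the filter only through the contractile cells. Its ratio of 1.72 was 0.21 without series 4, 5 or 6 and 3.22 without series 2, 3 or 7. Thbs1 (thrombospondin, 0.43) and Tgfb1i1 (Hic-5, an adhesion protein, 0.81) were above 0 in each series. Cyr61, a relative of Ctgf, stood at 0.96 but was below 0 in 1 of 6 series.

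In 3 lists of signalling pathways 1 gene each was called higher, beside 0.539% of all genes. The TGF-beta list had 17 genes compared, with Ctgf, the gene already counted above, called and a median of 0.03. The BMP list had 11, with Bmp4 called and a median of -0.12. The Notch list had 10, with Maml2 called and a median of 0.19. Maml2 passed the filter only through the contractile cells, so its call says nothing about the list. Of the 5 Notch genes detected on both sides none was called, with a median of 0.02. None of these lists had a gene called lower, and the 9 genes of the PDGF, endothelin and semaphorin list gave no call, with a median of -0.24.

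Bmp4 was detected in 42 of 69 contractile cells (60.9%, 48.4 to 72.4) and 28 of 112 Acta2-low cells (25%, 17.3 to 34.1). Its ratio was above 0 in 6 of 6 series, from 0.12 to 3.61. Bambi, a decoy receptor for this pathway, was above 0 in each series at 0.40, and Id1, a target of it, was below 0 in each series at -0.90. In series 1 only 5 of 23 contractile cells had Bmp4, against 13 of 18 in series 7. Efnb2, a membrane-bound ephrin ligand outside these lists, was detected in 33 of 69 and 23 of 112 cells and stood at 1.49.

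Of 15 elastic fibre genes compared, Fbln5 was called higher, beside 0.539% of all genes, none was called lower and the median was 0.29. Fbln5 (fibulin-5, which helps lay elastin on microfibrils) was detected in 73.9% of contractile and 53.6% of Acta2-low cells, with medians of 636 and 18.6 CPM and a log2 ratio of 1.45. That ratio was 0.70 without series 2, 4 or 6, below 2-fold, and 2.19 without series 3, 5 or 7. Lox, which cross-links elastin and collagen, was detected in 55 of 69 (79.7%) and 34 of 112 (30.4%) cells. That gap of 49.3 percentage points, as the mean over series, came with a ratio of 1.47, but the ratio was below 0 in 1 series and Lox was not called. Loxl2, a relative, was above 0 in each series at 0.90. Eln (elastin) had a ratio of 1.64 with 4 of 6 series above 0, and was detected in 55.1% of contractile and 64.3% of Acta2-low cells. Collagens gave no call among 16 genes, with a median of 0.16 and Col3a1 detected in all cells of both sets.

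**Figure D4:**
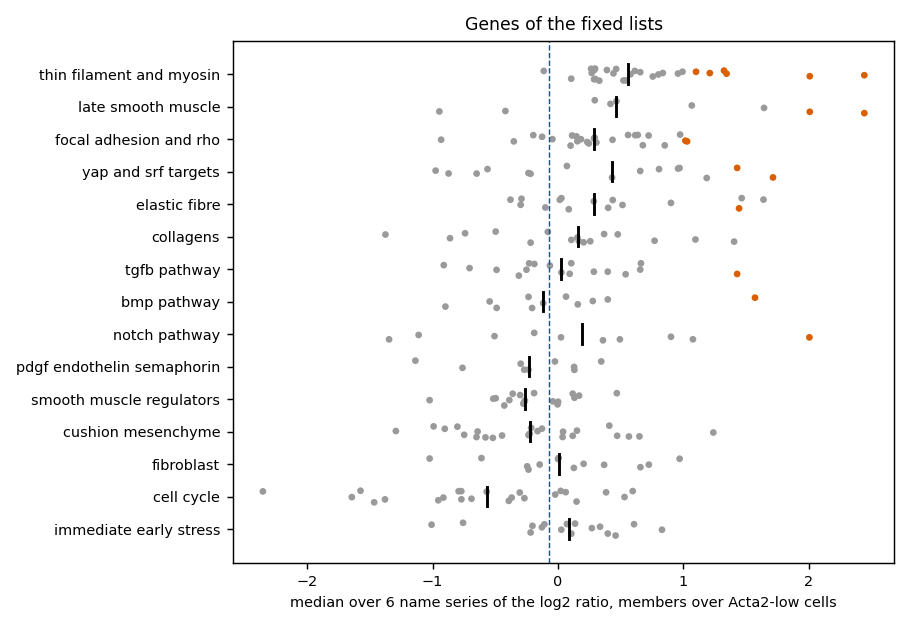
Median log2 ratio over 6 name series, contractile over Acta2-low cells, for the genes of 15 lists (1 point per gene compared, orange where called). Black bars are list medians and the dashed line is the median of all 6860 genes. The thin filament list lies furthest to the right, with 27 of its 28 genes above 0.

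Most contractile cells carried genes of the outflow cushion mesenchyme. Against Acta2-low cells, none of the 24 such genes compared was called in either direction, which is near the 0.539% and 0.612% of all genes, and the median was -0.22. Postn (periostin, a matrix protein of cushions and valves) was detected in 90 of 92 contractile cells (97.8%, 92.4 to 99.7), with a median of 3913 CPM. In series 2 to 7 it was detected in 97.1% of contractile and 96.4% of Acta2-low cells. Sox9, a factor of cushion and cartilage precursors, was detected in 85.5% and 87.5% of these cells, and Pdgfra, a PDGF receptor of mesenchyme, in 82.6% and 80.4%. Vcan (versican, a cushion proteoglycan) stood at -0.80 and Twist1, a mesenchymal factor, at -0.65, each above 0 in 1 of 6 series. Of the 92 contractile cells, 66 (71.7%, 61.4 to 80.6) had both Pdgfra and Sox9, and 54 (58.7%, 47.9 to 68.9) had both Cnn1 and Sox9. Of the 26 listed genes, 19 were each detected in 50% or more of the 92 cells. The others were Has2, Hapln1, Scx, Twist2, Dlk1, Msx1 and Msx2. As means over series 2 to 7, Msx1 was detected in 6.85% and Msx2 in 4.07% of contractile cells. The name mesenchyme thus matched most of the listed markers, though not all of them and not in every cell.

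Of 13 fibroblast genes compared with Acta2-low cells none was called, near the background, and the median was 0.01. Single genes of the list were unevenly placed over the name series. Dcn (decorin) was detected in 23 of 23 contractile cells of series 1 and 9 of 9 of series 2, with medians of 8640 and 8698 CPM. In series 5 it was detected in 0 of 15 contractile cells, and in series 4 in 6 of 15. The Acta2-low cells had Dcn in 12 of 16 cells of series 2 and in 2 of 13 of series 5. Lum (lumican) was at 10 CPM or more in 23 of 23 contractile cells of series 1 and 3 of 15 of series 5. Tnni1 (slow skeletal troponin I, also of the fetal heart) had the opposite placing, in 1 of 23 contractile cells of series 1, 0 of 9 of series 2 and 11 of 15 of series 5. Name series may differ in stage, animal or chip, which cannot be told apart here.

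Contractile cells included cells with division genes. Mki67, a marker of cycling cells, was detected in 29 of 92 (31.5%, 22.2 to 42.0) and Top2a, a topoisomerase of dividing cells, in 33 (35.9%, 26.1 to 46.5). Of these, 17 cells had both Mki67 and Cnn1. In series 2 to 7 Mki67 was detected in 27.5% of contractile and 27.7% of Acta2-low cells. None of 23 cell cycle genes compared was called, near the background of 0.539% higher and 0.612% lower. Their median was -0.57, with 6 of the 23 above 0, where 44.8% of all genes were. None of 16 immediate early and stress genes compared was called either, with a median of 0.09.

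Markers of glia, melanocytes and neurons were low in most contractile cells, while single genes of the mural and epicardial lists were not. Summed over the listed genes, the median was 0 CPM for 10 glial genes, 0 for 5 melanocyte genes and 1.68 for 7 neuronal genes. It was 103 CPM for 8 endothelial genes, 125 for 4 epicardial genes and 335 for 11 mural (pericyte) genes, of which Mcam was detected in 83.7%, Pdgfrb in 58.7% and Rgs5 in 19.6% of the 92 cells. The mural sum was 100 CPM or more in 82 of 92 cells and the epicardial sum in 50. Of the epicardial list, Tbx18, a T-box factor, was detected in 69.6%, while Aldh1a2 had no read in any of the 92 cells. As means over series 2 to 7, Wt1 was detected in 2.22% of contractile and 10.5% of Acta2-low cells. Krt19 was detected in 5% and 1.46%. For 17 cardiomyocyte genes the median sum was 156 CPM, and for 2 blood and macrophage genes it was 0. Over series 2 to 7, the median sums in the 69 contractile and the 112 Acta2-low cells were 108 and 42.1 CPM for the endothelial genes and 130.04 and 4.93 for the epicardial genes. They were 334 and 224 CPM for the mural genes and 368 and 96.6 for the cardiomyocyte genes, with ranges that overlapped. The highest epicardial sum was 2614 CPM in a contractile and 4092 CPM in an Acta2-low cell. Tbx18, the 1 epicardial gene compared, was detected in 70% and 36.9% of the cells as means over series. Its log2 ratio of mean CPM was -0.22. The part of cells or RNA of these types in the comparison was not tested. Nppa, a natriuretic peptide gene of heart muscle, was at 0 in all 92 cells. In 2 contractile cells the glial sum was above 1000 CPM (3380 in series 1 and 1193 in series 2), as it was in 5 Acta2-low cells.

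One contractile cell of series 7 had 15 of 17 cardiomyocyte genes at 100 CPM or more. Its summed level over them was 68822 CPM, of which Actc1 (cardiac alpha-actin) took 26720, and it had 1265 CPM of Acta2 and 173 CPM of Cnn1. The next highest contractile cell summed to 3214 CPM, and no other contractile cell had more than 3 such genes at that level. Without this cell, 36 genes were higher and 40 lower, and the Cnn1 difference was 58.5 points. Actc1 was detected in 23 of 69 contractile and 12 of 112 Acta2-low cells and was above 0 in 5 of 6 series. Since it is a close copy of Acta2, shared reads are possible and their part in it was not tested.

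Among contractile cells, the genes that followed Acta2 were described by Spearman's rank correlation across the cells of series 1, 4, 5 and 7 (23, 15, 15 and 18 cells), as the median over the 4 series. These are single-cell correlations within shared series and carry no test. Of 4849 genes detected in at least 30% of the cells, the highest were Celf4 (0.49), Bri3bp (0.47), Tpm1 (0.47), Cyba (0.45), Cfl1 (0.43) and Myh9 (0.43), followed by Cstb, Zfp62, Jup and Cfdp1 at 0.42. Of these, Bri3bp, Tpm1, Cyba, Myh9, Zfp62 and Jup were above 0 in each of the 4 series. The genes were ranked on the same 4 series, so these signs follow in part from the ranking and are a description. The lowest were Nfib (a nuclear factor, -0.44), Agrn (agrin, -0.43), Rsf1 (-0.41), Srprb (-0.41) and Dchs1 (-0.40). For Myl9 the value was 0.31, for Cnn1 0.25, for Tagln 0.17, for Postn 0.18 and for Pdgfra -0.09, and the median of all genes was 0.03. Tagln ranged from -0.37 in series 7 (18 cells) to 0.46 in series 4 (15 cells). Acta2, Tagln and Myl9 were each cut at 100 CPM by the rule, so the values among them are a description.

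The contractile cells were also compared with the Myh11 cells. Only series 1 and 2 held at least 5 of them, so 32 contractile cells were compared with 16 Myh11 cells (23 against 9 and 9 against 7). Of 7484 genes, 1175 (15.7%) were called higher in contractile cells and 686 (9.17%) lower, with a median of 0.20. Agreement is required over 2 series here instead of 6, so these shares cannot be read against those above. Of 5485 genes detected in at least 20% of the cells on both sides, 661 (12.1%) were called higher and 391 (7.13%) lower. With series 1 left out 3992 genes were called and with series 2 left out 2596, against 1861 with both. Medians of genes per cell at 200000 reads were 5349 in contractile and 5027 in Myh11 cells of series 1, and 4436 and 3667.5 in series 2.

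The rule genes differed in level as well as in Myh11. Acta2 in the 17 Myh11 cells ran from 707 over a median of 6542 to 20395 CPM, against the median of 924.7 CPM in contractile cells, and the ranges overlapped. The log2 ratios, contractile over Myh11 cells, were -1.95 for Acta2, -1.77 for Tagln and -1.63 for Myl9.

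Of the 20 late smooth muscle genes 17 were compared, 6 of which (Myh11, Kcnmb1, Ppp1r12b, Myocd, Aoc3 and Cacna1c) passed the filter only through the Myh11 cells and had to differ in detection, with Myh11 itself a gene of the rule. Of the 11 detected on both sides, all were called lower in contractile cells, beside 7.13% of all genes so detected, with a median of -1.63 against 0.18. Myocd stood at -0.42 and was not called. Cnn1 was at -2.22, Lmod1 at -2.35, Mylk at -1.69 and Synpo2 at -2.17. In series 2, Lmod1 was detected in 4 of 9 contractile cells, 6 of 7 Myh11 cells and 1 of 16 Acta2-low cells, and Itga8 (integrin alpha 8) in 6 of 9, 7 of 7 and 4 of 16. Of 28 thin filament genes 9 were called lower, beside 9.17% of all genes, Tpm1 (-1.29) and Tpm2 (-1.92) among them. Another 3 were called higher (Actg1, Myl12b and Fhl2), beside 15.7% of all genes, and the median was -0.45.

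Of 24 cushion mesenchyme genes compared, 15 were called higher in contractile cells, beside 15.7% of all genes, and none lower. The list's median was 1.33, against 0.20 for all genes. Of these 24, 6 (Has2, Twist1, Twist2, Snai1, Sox4 and Dlk1) passed the filter only through the contractile cells and had to differ in detection. Of the 18 detected on both sides 11 were called higher, beside 12.1% of all genes so detected. With Myh11 cells taken from 10 CPM instead of 100, the count of 15 was 8. Postn stood at 2.39, Sox9 at 2.002, Pdgfra at 2.15, Twist1 at 1.82 and Vcan at 1.31. Snai1, a factor of the mesenchymal transition, was detected in 50.0% of contractile and 0% of Myh11 cells, and stood at 1.87. In series 2, Pdgfra was detected in 7 of 9 contractile cells (median 92.0 CPM) and in 1 of 7 Myh11 cells (median 0), and Twist1 in 2 of 9 and 0 of 7. Of 15 fibroblast genes, all detected on both sides, 8 were called higher and 1 lower (Cxcl12, a chemokine), with Dcn at 2.94 and Lum at 2.87. Of all genes so detected, 12.1% were called higher and 7.13% lower, and the count lower is near that share. Of 17 elastic fibre genes 5 were called lower (Eln at -3.05, Fbln5, Lox, Ltbp1 and Ltbp4), beside 9.17% of all genes, with a median of -0.25. The 3 called higher (Fbln1, Mfap5 and Loxl2) are near the 15.7% of all genes.

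**Figure D5:**
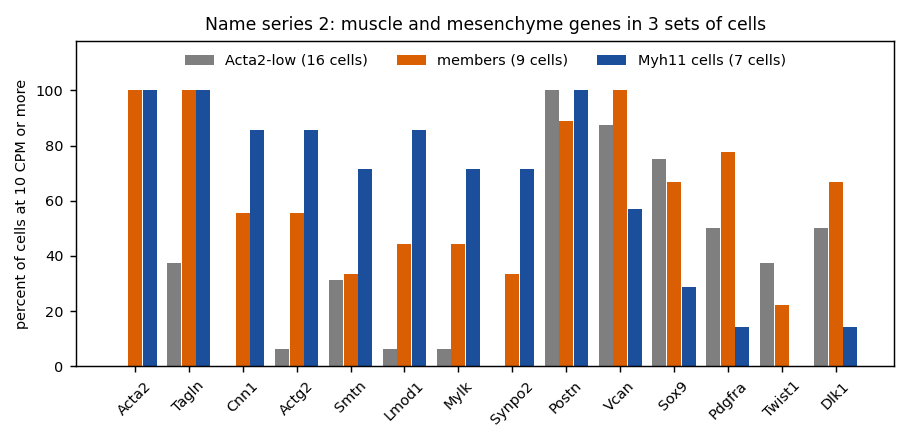
Percent of cells with a gene at 10 CPM or more in name series 2, the series with at least 5 cells of each set: 16 Acta2-low cells (grey), 9 contractile cells (members, orange) and 7 Myh11 cells (blue). Acta2 and Tagln were used by the rule. Cnn1, Lmod1 and Mylk are ordered grey, orange, blue from low to high, while Pdgfra and Dlk1 are higher in orange than in blue.

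The 8 genes highest in contractile cells were Hist1h2bc (a histone, 4.78), Dlk1 (an imprinted growth regulator, 4.14), Fmod (fibromodulin, 4.08), Capn6 (4.02), Serpinf1 (3.99), Olfml3 (3.47), Penk (proenkephalin, 3.29) and Srpx (3.204). The 8 lowest were Myh11 (-5.77), Timp4 (a metalloproteinase inhibitor, -4.30), Igfbp2 (-3.82), Cbr2 (-3.79), Frmd4b (-3.75), Gfra4 (-3.75), Myom1 (a sarcomere protein, -3.69) and Atf3 (a stress-response factor, -3.62). These medians rest on 2 series that can lie far apart: Hist1h2bc stood at 2.60 in series 1 and 6.95 in series 2. Both rankings include genes that passed the filter only through the side where they are high. Dlk1 did so through the contractile cells and Myh11 through the Myh11 cells, and Myh11 was fixed by the rule. Capn6 was detected in 87.5% of contractile and 25% of Myh11 cells.

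Immediate early and stress genes moved with this comparison: 11 of 18 were called lower in contractile cells, beside 9.17% of all genes, and none higher, Fos (-1.52), Jun (-1.41) and Egr1 (-1.19) among them. Their sum over the 18 genes ran from 2237 over 7603 to 23333 CPM in contractile cells and from 6026 over 17261 to 70540 CPM in Myh11 cells of series 1. In series 2 it ran from 2299 over 7106 to 23239 CPM and from 3548 over 12040 to 37730 CPM. The part of these genes in the other differences from Myh11 cells was not tested.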

How the data were processed

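Single-cell RNA was sequenced from 294 cells, paired-end and without molecular identifiers, per the labels. A pair of tables of the whole series was deposited. The first holds raw read counts for 15124 genes, which the authors made with HISAT2 2.1.0 and featureCounts on mm10, per the submitters' processing notes, with the annotation and the gene filter not given in the sources used here. The second holds a depth-corrected score rounded to whole numbers by the authors, with Seurat named in the submitters' processing notes. It served as an alternative only. No column was left unmapped.

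Counts were scaled to CPM with Python 3.11.15, pandas 2.3.3, numpy 2.4.6 and scipy 1.17.1. The cell sets, the 24 gene lists (363 of 395 genes in the table) and the named genes were chosen with earlier results of these data known, so the lists are not independent evidence. Named are the rule genes, Cnn1, list genes (those called and the most abundant others), the 15 highest and 10 lowest calls, the 8 highest and lowest against Myh11 cells, and the 10 highest and 5 lowest correlations with Acta2. Genes that were above or below 0 in all series, or that show a placing across series, were added after their values were seen. A few genes that this rule names are not reported here. Shares carry exact 95% binomial intervals. The comparison was checked on simulated counts with large changes in widely detected genes and no differences in gene level between name series. That check does not cover calls near 2-fold or in sparse genes. Depths were 34046 to 3033857 reads per cell. Alternatives changed the thresholds, the table, the depth, the amount added, the scale, the filter and the series used, and a filter on both sides was added after seeing the data.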

Additional observations from a re-analysis of the deposited data

How the results depend on the processing

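The number of contractile cells stayed between 68 and 108 over the thresholds, tables and depths tried, and between 69 and 86 with 1 name series left out. The 37 genes higher in contractile cells became 21 against cells with Acta2 below 100 CPM, 66 with the 3 contractile genes at 200 CPM or more, 18 with 50 CPM added and 251 by mean log2(CPM + 1). The 42 genes lower became 70 after thinning to 200000 reads, 112 with the contractile genes at 200 CPM or more, 71 with 1 CPM added, 9 with 50 CPM added, 5 by mean log2(CPM + 1) and 76 without the filter on detection. With detection in 20% of the cells required on both sides, fewer genes are compared, and 19 were higher, 24 lower and 1052 called against Myh11 cells, a setting chosen after seeing the data. The cause of the other moves was not tested. With 1 series left out, fewer series had to agree, and the counts were 50 to 81 higher and 72 to 110 lower. The genes called against Myh11 cells were then 2596 to 3992. The Cnn1 difference stayed between 54.6 and 63.2 points with 1 series left out. It was 47.5 points against cells with Acta2 below 100 CPM, and 37.3 points with Cnn1 counted from 100 CPM. Of 575 recomputed ratios of 49 named genes, all kept their sign and 58 moved by more than the spread over series. These genes were named for having the same sign in every series. Leaving out a series, changing the amount added or dropping the filter could thus not reverse them. For those settings the kept sign is no evidence of stability. No paired analysis was possible because all cells form 1 group and no label numbers them across groups. Genes in few cells rest on few reads, and depth per cell limits detection.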
